A study of Mus musculus with 6 samples.

Results

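The open regions described here lie in gene deserts of the mouse genome, and were found in primary vascular smooth muscle cells by ATAC-seq, an assay in which the transposase Tn5 cuts DNA where chromatin is open. The peaks of 6 libraries were merged wherever they overlapped by at least 1 base on chromosomes 1 to 19, X and Y. A merged region was kept where at least 4 of the 6 libraries had a peak in it and its midpoint lay more than 100 kb from every RefSeq protein-coding gene of mm10. This left 2898 desert regions of 85174 merged regions, or 7.71% of the 37599 regions that at least 4 libraries shared. The members were thus selected on the presence of peaks and on distance, so it is no finding that they are shared and far from genes. Presence and distance are described below within those limits or beside other regions. All the libraries came from mouse cells bought from a supplier, with 50000 cells and a Tn5 reaction of 30 min in each assay.

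The control group held 3 libraries of cells given a negative control siRNA. The knockdown group held 3 libraries of cells given siRNA against Arid3a, a transcription factor that binds AT-rich DNA, and cells of both groups were kept for 24 h after transfection. Each knockdown library had a different siRNA, named #1, #2 and #3, so the spread in that group holds differences between siRNAs. The labels do not name separate cultures, so the spread that p-values rest on may be technical. They also describe angiotensin II, given to smooth muscle cells as an aneurysm model in culture, but do not say which libraries it was given to, so it entered no comparison. The level of Arid3a was not analysed here.

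Gene deserts are long stretches of the genome without protein-coding genes. They are known to hold enhancers, short stretches of regulatory DNA that can act on a promoter far away on the same chromosome, and many deserts beside genes of development and growth are dense in them. Smooth muscle cells of the vessel wall can leave their contractile state, divide and lay down matrix, and transcription factors such as myocardin and Klf4 are known to act in opposite directions in that switch. A peak shows that the DNA was open to the transposase, and does not say which gene, if any, a region acts on. The flanking genes below are therefore named for position only.

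Some desert regions lay over genes that make no protein, and their reference sequences from RefSeq (GRCm38.p6, the assembly called mm10) are printed first because they are the members with a sequence in the tables used here. The sequences of the remaining regions were not analysed here. Of the 2898 regions, 674 (23.3%) overlapped a gene of another type, against 23.5% of the other intergenic regions shared by at least 4 libraries. Long noncoding RNA genes accounted for 655 of them (22.6%, against 21.4%). The remainder included 11 over pseudogenes, 6 over transcribed pseudogenes, 4 over microRNA genes, 3 over miscellaneous RNA genes and 1 over a tRNA gene, and a region could overlap several types.

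The 4 regions over microRNA genes lay in 1 gap on chromosome 7, between Gm51483 and Ndn, an imprinted gene. They covered the hairpins of Mir344d-2, Mir344d-3, Mir344c and Mir344, and had a peak in 5, 6, 5 and 4 libraries. A region within 2 kb of a hairpin was also found beside Mir29a (342 bases away) and Mir29b-1 (705 bases), beside Mir100 (1153 bases), beside Mir3072 (1780 bases) and beside Mir344d-1 (1917 bases). MicroRNAs pair with messenger RNAs through the seed, bases 2 to 8, which stands in capitals in the mature sequences printed here 5′ to 3′. The arms chosen are those that share a seed within the 344 or 29 families, and miR-100-5p.
mmu-miR-344d-3p: gAUAUAACcacugccagacuga
mmu-miR-344c-3p: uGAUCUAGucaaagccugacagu
mmu-miR-344-3p: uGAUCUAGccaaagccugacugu
mmu-miR-344c-5p: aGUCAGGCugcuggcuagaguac
mmu-miR-344-5p: aGUCAGGCuccuggcuagauuccagg
mmu-miR-344d-1-5p: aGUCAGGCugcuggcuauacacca
mmu-miR-344d-3-5p: aGUCAGGCuagugguuauacucc
mmu-miR-29a-3p: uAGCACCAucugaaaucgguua
mmu-miR-29b-3p: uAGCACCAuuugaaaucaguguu
mmu-miR-100-5p: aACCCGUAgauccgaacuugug

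The hairpins of Mir344d-1, Mir344d-2 and Mir344d-3 give the same mature miR-344d-3p. The 3p arms of miR-344c and miR-344 share a second seed, the 5p arms of miR-344c, miR-344, miR-344d-1 and miR-344d-3 share another, and the 3p arms of miR-29a and miR-29b share theirs. The miR-29 family is known to target messenger RNAs of collagens and other matrix proteins. Its region, at chr6:31061869-31062318 in the gap between Klf14 and Mkln1, was among the weaker ones. The authors' fold enrichment, which sets the signal at a peak's summit against the background around it within that library, was 4.17, 3.78 and 6.13 in control libraries 1 to 3 and 5.68 and 3.76 in knockdown libraries 1 and 2, with no peak in knockdown library 3. The region beside Mir3072 on chromosome 12 reached 15.2, 8.84 and 17.6 in the controls and 13, 19 and 13 in the knockdown libraries, with the groups overlapping. Over the Mir344c hairpin, at chr7:61837255-61837675, the fold enrichment was 8.42 and 10.6 in control libraries 1 and 3, and 11.3, 12.1 and 7.94 in the knockdown libraries. Over Mir344 it was 3.98 and 3.84 in control libraries 1 and 3 and 5.54 and 3.88 in knockdown libraries 1 and 2.

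Promoter windows, which run from 250 bases before to 50 bases after a start in RefSeq, were touched by 58 desert regions (2.00%, against 3.32% of other intergenic regions). These windows numbered 63, from 57 noncoding genes. The 4 whose regions had the highest support in their weakest library are printed on the strand of the gene, 5′ to 3′. Capitals mark matches on either strand to TGANTCA, the AP-1 motif, GGAATG, the TEAD motif, and TGTGGT, the RUNX motif. None of the 3 strings contains another. The windows are 4930471E19Rik at chr10:120636058-120636357 (minus strand), Gm35551 at chr17:84044537-84044836 (minus), Gm30657 at chr5:118413532-118413831 (minus) and 4930543I11Rik at chr10:67785493-67785792 (plus).
4930471E19Rik: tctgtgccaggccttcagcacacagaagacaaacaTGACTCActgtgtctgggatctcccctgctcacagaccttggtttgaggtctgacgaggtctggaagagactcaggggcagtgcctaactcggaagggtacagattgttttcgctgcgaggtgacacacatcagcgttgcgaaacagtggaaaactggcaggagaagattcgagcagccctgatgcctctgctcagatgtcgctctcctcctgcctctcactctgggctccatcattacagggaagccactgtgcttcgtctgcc
Gm35551: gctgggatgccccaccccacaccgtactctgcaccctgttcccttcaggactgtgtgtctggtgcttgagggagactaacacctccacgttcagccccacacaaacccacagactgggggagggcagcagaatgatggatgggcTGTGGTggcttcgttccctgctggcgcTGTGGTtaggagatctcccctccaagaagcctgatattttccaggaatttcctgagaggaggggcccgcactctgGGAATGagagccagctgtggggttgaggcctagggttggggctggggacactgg
Gm30657: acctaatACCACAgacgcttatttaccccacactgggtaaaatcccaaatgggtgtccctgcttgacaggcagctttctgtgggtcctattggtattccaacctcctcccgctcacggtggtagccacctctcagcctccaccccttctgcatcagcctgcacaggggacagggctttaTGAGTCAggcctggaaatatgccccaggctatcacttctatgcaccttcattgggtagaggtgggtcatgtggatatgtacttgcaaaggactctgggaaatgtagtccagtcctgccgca
4930543I11Rik: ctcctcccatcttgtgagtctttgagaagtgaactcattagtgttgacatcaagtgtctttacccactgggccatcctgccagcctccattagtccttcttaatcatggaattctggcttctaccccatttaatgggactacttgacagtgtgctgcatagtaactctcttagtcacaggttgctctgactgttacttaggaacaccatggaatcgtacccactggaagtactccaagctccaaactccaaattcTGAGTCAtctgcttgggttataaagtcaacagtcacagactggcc

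The AP-1 string, bound by Fos and Jun proteins, stood in 21 of the 63 windows at desert regions (33.3%), in 21.2% of the 378 windows at other intergenic open regions and in 7.81% of all 32851 windows. The RUNX string stood in 19 of the 63 (30.2%), against 21.4% and 16.8%. The TEAD string stood in 12 of the 63 (19%), against 20.6% and 14.7%. The median G and C content was 49.0% in the 63 windows and 52.7% in all windows. A match is a string of letters and does not show that a factor was bound, and windows of 1 gene can overlap.

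The printed window of 4930471E19Rik lies in the gap between Hmga2, a chromatin protein of dividing mesenchymal cells, and Msrb3. Its region had fold enrichments of 15.2, 10.5 and 13.6 in the controls and 14.2, 13.2 and 10.3 in the knockdown libraries. At Gm35551, between Haao and Zfp36l2, the values were 12.9, 10.0 and 13 against 14.7, 16.5 and 10.6. At Gm30657, between Spring1 and Med13l, they were 16.2, 9.50 and 16.1 against 13.2, 16.4 and 11.3. In each of these regions the groups overlapped, and control library 2, which had the shortest peak list, was the lowest control value.

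Open regions thinned out with distance from genes, and went on thinning within the deserts. Between 1 and 10 kb from the nearest protein-coding gene there were 15.3 shared regions per Mb of sequence between genes, and between 50 and 100 kb there were 8.78. From 100 to 200 kb the density was 6.33 per Mb, from 200 to 500 kb 3.65, from 500 to 1000 kb 1.28, and beyond 1000 kb 0.446, with 33 regions in 74.0 Mb. Unsequenced stretches of the assembly were not removed from these lengths. Most desert regions therefore lay near the edges: 1536 (53.0%) at 100 to 200 kb, 1124 (38.8%) at 200 to 500 kb, 205 (7.07%) at 500 to 1000 kb and 33 (1.14%) farther out.

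Peak height changed little with distance within the deserts. The median fold enrichment was 7.42, 7.29, 7.57 and 7.03 in the 4 distance bands, from the nearest to the farthest. The share with a peak in all 6 libraries was 48.5%, 43.8%, 41% and 48.5%, against 48.9% of the regions 50 to 100 kb from a gene.

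**Figure D1:**
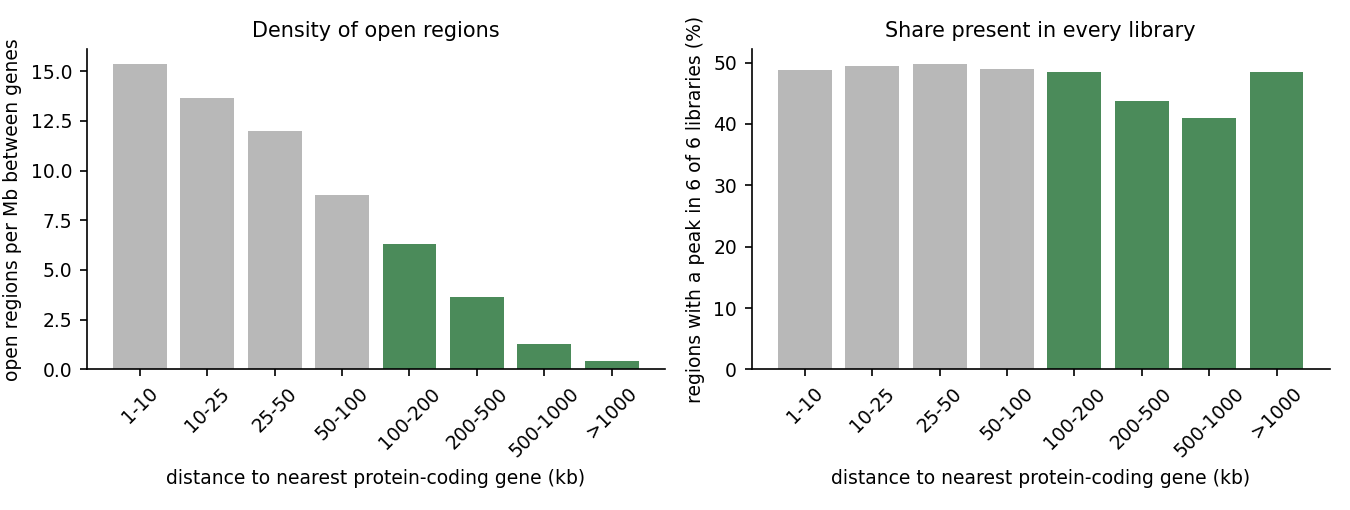
Left, shared open regions per Mb of sequence between genes in 8 bands of distance (kb) to the nearest protein-coding gene; right, the percent of each band's regions with a peak in 6 of 6 libraries. Green bars are the desert bands: density fell from 15.3 to 0.446 per Mb, while the share in all libraries stayed between 41% and 49.7%.

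The region farthest from any gene lay at chr14:82243390-82243769, between Olfm4 and Pcdh17, a protocadherin, and 2200 kb from the nearer of them. It had a peak in 5 libraries, with fold enrichments of 5.95 and 7.31 in control libraries 1 and 3 and 5.93, 5.82 and 5.20 in the knockdown libraries. A stronger region in the same gap, at chr14:82065169-82065603 and 2042 kb from a gene, had 15.1, 9.42 and 15.1 in the control and 14.2, 16.0 and 12 in the knockdown libraries. The next 3 lay 1677 kb from a gene between D3Ertd751e and Pcdh10, 1645 kb between Dsel and Cntnap5a and 1467 kb between Slc10a2 and Efnb2. Their −log10 q in the weakest library with a peak was 2.27, 2.27 and 2.83, and they were found in 6, 5 and 4 libraries. Such values are the authors' own per peak, with a q-value that falls as support grows, and are used here to rank regions.

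The desert regions were unevenly spread. Protein-coding genes left 1689 gaps of more than 200 kb, long enough to hold a desert, with 785 Mb of desert in all. Of these, 672 (39.8%) held at least 1 desert region and 212 held exactly 1. At the other end, 75 gaps with at least 10 regions held 1096 of the members (37.8%), and 118 gaps held 50% of them. The 1017 gaps without a region took up 392 Mb, or 49.9% of the desert. They were shorter, with a median of 169 kb of desert against 335 kb in the gaps with a region. Neighbouring regions of 1 gap were a median of 27.0 kb apart (quartiles 10.2 and 66.0 kb), and 550 of 2226 neighbouring pairs (24.7%) were within 10 kb.

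Several of the longest gaps held none. The longest empty gaps were the 4278 kb between Cntnap5b and Cdh20 on chromosome 1, the 3989 kb between Tenm3 and Aga on chromosome 8, the 3595 kb between Stim2 and Pcdh7 on chromosome 5, the 3412 kb between 4931417E11Rik and Ctnna2 on chromosome 6 and the 3409 kb between Slitrk5 and Gpc5 on chromosome 14. Cntnap5b, Cdh20, Tenm3, Pcdh7 and Slitrk5 encode proteins of cell or synaptic adhesion. Among chromosomes, the density was highest on chromosome 13 (7.76 regions per Mb of desert, 260 regions), 10 (7.14, 242 regions) and 15 (6.17, 212 regions). It was lowest on chromosome 7 (2.22, 61 regions), X (0.912, 53 regions) and Y, with 0 regions in 47.3 Mb. The sex of the cells, and how well reads can be placed on each chromosome, were not analysed here. A low value therefore does not show closed chromatin. The values over all gaps include the 58.1 Mb of X and the 47.3 Mb of Y.

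The gap between Myc and Gsdmc on chromosome 15 held most desert regions, 53 in 1786 kb, of which 26 had a peak in all 6 libraries. Myc is a transcription factor that drives growth and division, and Gsdmc is a pore-forming gasdermin. The regions were a median of 17.4 kb apart, 36 of the 53 lay nearer to Myc than to Gsdmc, and 14 overlapped a long noncoding RNA gene. The control libraries had a peak in 49, 33 and 51 of them and the knockdown libraries in 49, 53 and 42. The strongest, at chr15:62328265-62329327 and 338 kb from Myc, had fold enrichments of 15.8, 11.6 and 14.5 in the control and 13.8, 13.3 and 13.9 in the knockdown libraries. A second strong region 297 kb from Myc, at chr15:62286732-62287702, had 19.3, 13.8 and 13.6 against 14.6, 16.9 and 15.3. In both regions the knockdown values lay within the range of the control values.

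The gaps beside Klf4, Runx1, Zeb2 and Cited2 also ranked among the 8 with most regions. Between Klf4, a zinc finger factor that smooth muscle cells raise when they leave the contractile state, and Actl7b, 28 regions lay in 1208 kb on chromosome 4, of which 12 were nearer to Klf4 and 16 nearer to Actl7b, a relative of actin. The strongest, at chr4:56323185-56323698, 791 kb from Klf4 and 417 kb from Actl7b, had fold enrichments of 16.0, 10.9 and 12.7 in the control and 12.1, 15.8 and 11.9 in the knockdown libraries. Between Runx1, a Runt-domain factor, and Setd4, 22 regions lay in 757 kb on chromosome 16, 12 of them nearer to Runx1. The strongest of these, at chr16:93109558-93110106, had 12.9, 9.63 and 10.5 against 12.3, 10.9 and 8.69.

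Between Zeb2, a zinc finger repressor, and Acvr2a, an activin receptor, 24 regions were spread over 3697 kb on chromosome 2, and 20 of them lay nearer to Zeb2. Their strongest region, at chr2:45581023-45581782, had 15.5, 10.2 and 12.7 in the control and 11.6, 14.5 and 13.1 in the knockdown libraries. Between Nmbr and Cited2, a coactivator-binding protein, 23 of 27 regions on chromosome 10 lay nearer to Cited2. The strongest stood 375 kb from Cited2, at chr10:17347777-17348242, with 19.1, 15.4 and 17.3 against 16.8, 15.6 and 13.7. In all 4 of these regions the groups overlapped.

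The other 3 of these gaps were bounded by Rasgrp1 and Thbs1, by Plpp3 and Usp24, and by Serp2 and Lacc1. Rasgrp1, an activator of Ras, and Thbs1, the matrix protein thrombospondin 1, had 27 regions in 769 kb on chromosome 2, of which 15 overlapped a long noncoding RNA gene and 13 were nearer to Rasgrp1. Plpp3, a lipid phosphatase, and Usp24 had 27 in 1083 kb on chromosome 4, 11 of them nearer to Plpp3. Serp2 and Lacc1 had the densest of these deserts, with 21 regions in a gap of 465 kb on chromosome 14, a median of 7.64 kb apart and 16 of them nearer to Serp2. That gave 79.3 regions per Mb of desert, against 3.69 over all gaps. Its strongest region, at chr14:76834025-76834437, had fold enrichments of 17.0, 12.6 and 19.8 in the control and 18, 18.4 and 16.1 in the knockdown libraries.

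**Figure D2:**
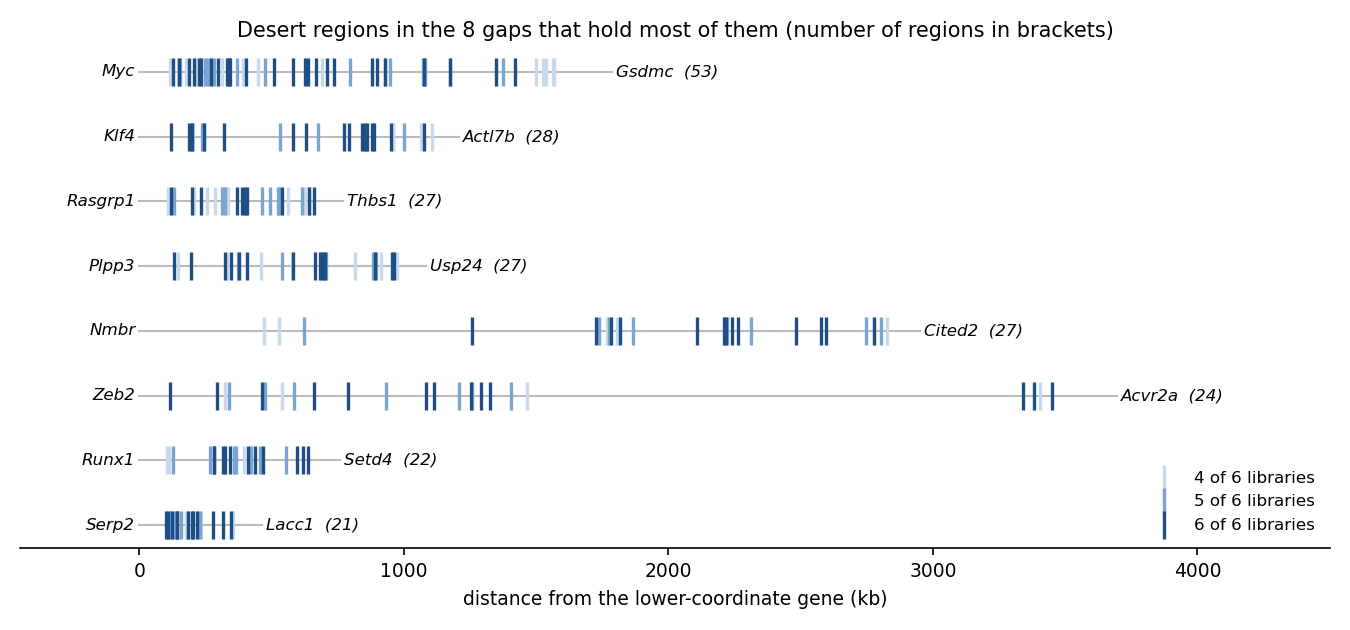
Maps of the 8 gaps between protein-coding genes that held most desert regions, to scale, with distance in kb from the gene of lower coordinate and 1 tick per region, darker where more libraries had a peak. The 53 regions of the Myc gap crowd toward Myc, and 20 of the 24 in the Zeb2 gap lie nearer to Zeb2.

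The best supported regions were ranked by the −log10 q of their weakest library among those present in all 6. Of the 12 highest, 2 lay side by side on chromosome 17 between Esp15 and Esp38, over the ribosomal RNA pseudogene Rn18s-rs5, and stood apart from the others. The first, at chr17:39843150-39846717, was the widest desert region (3568 bases), and its −log10 q ran from 103 to 139. Yet its fold enrichment was 3.38, 3.93 and 3.45 in the control and 3.45, 3.24 and 4.03 in the knockdown libraries. The second, at chr17:39847573-39848748, had the lowest median fold enrichment of all desert regions, 2.58. Ribosomal RNA genes have many near-identical copies, between which reads cannot be told apart, so the values of both regions are uncertain.

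A region on chromosome 3, at chr3:5860347-5860819 between Pex2, a peroxisome assembly protein, and 1700008P02Rik, had the highest fold enrichment of all members. It was 28.7, 20.9 and 28.1 in the control and 30.4, 34.0 and 21.8 in the knockdown libraries, and its groups overlapped. The next highest median among desert regions was 19.4, between Med30 and Ext1 on chromosome 15. No list of regions with unusually high signal was used to filter the peaks.

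The other 9 had fold enrichments between 11.6 and 21.8 in single libraries. One lay 166 kb from Trib1, a pseudokinase, at chr15:59822751-59823723, over the long noncoding RNA gene Gm36819, with 15.2, 14.8 and 15.4 in the control and 16.0, 15.4 and 12.9 in the knockdown libraries. A region 188 kb from Sox5 at chr6:143640477-143641048 and another 214 kb from Sox9 at chr11:113000984-113001639 flanked factors of cartilage and mesenchyme development. The Sox5 region was the steadiest of the 9, with 14.7, 15.9 and 14.4 against 14.4, 15.4 and 14.2. The Sox9 region had 16.8, 15.9 and 14.4 against 18.1, 18.4 and 15.6. A region 257 kb from Cxcl12, a chemokine of stromal cells, at chr6:117437535-117438312 had 17.0, 13.9 and 15.1 against 16.5, 12.6 and 13.9. The remaining ones were the pair beside Myc given above and single regions between Tspyl5 and Gm41291, between C1d and Etaa1, and between Nrep and Epb41l4a. On these values, the groups overlapped in each of the 12.

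**Figure D3:**
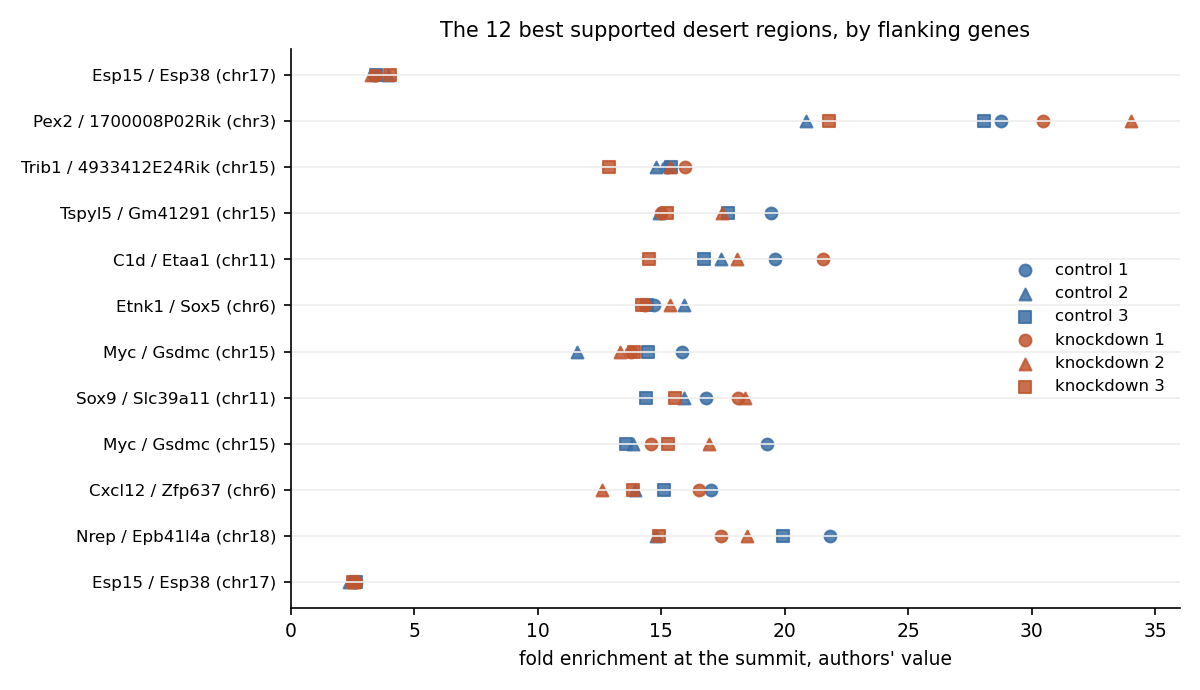
The authors' fold enrichment at the summit in each library, for the 12 desert regions with the highest −log10 q in their weakest library, named by flanking genes; blue is control, orange is knockdown. In every row the groups overlap on these unscaled values; the regions over Rn18s-rs5 lie between 2.36 and 4.03, and the Pex2 region lies between 20.9 and 34.0.

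Lists of flanking genes were compared by the density of desert regions in the gaps they bound, as a description without a test. Over all gaps of more than 200 kb it was 3.69 regions per Mb of desert, and 39.8% of gaps held a region. Extracellular matrix genes bounded 23 such gaps, of which 19 (82.6%) held a region, with 141 regions and 15.4 per Mb. The strongest of these lay 148 kb from Ccn2, a matricellular growth regulator, 147 kb from Has2, which makes hyaluronan, and 141 kb from Dcn, the proteoglycan decorin. The Ccn2 region, at chr10:24447136-24447657 and 145 kb from Moxd1 on its other side, had fold enrichments of 13.9, 14.8 and 17.2 in the control and 16.0, 18.3 and 13 in the knockdown libraries. The Has2 region, at chr15:56841614-56842060, had 13.4, 12.9 and 13.1 against 16.7, 17.0 and 15.0. Every knockdown value lay above every control value there, as it also did in the region 385 kb from Fgf10 described with the secreted signals. The Dcn region, at chr10:97338022-97338520, had 14.9, 13.7 and 15.6 against 16.2, 15.1 and 12.6.

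Regulators of smooth muscle and mesenchyme bounded 16 gaps, of which 11 (68.8%) held 97 regions, at 13.2 per Mb. Among them were regions 137 kb from Gata6 on chromosome 18 and 239 kb from Tbx18 on chromosome 9 (209 kb from Cep162 on its other side), both transcription factors of vascular or pericyte lineages. The Tbx18 region, at chr9:87463759-87464579, had 21.3, 9.45 and 16.5 in the control and 17.6, 19.9 and 15.6 in the knockdown libraries, with control library 2 far below the rest. Secreted signals bounded 35 gaps, of which 24 (68.6%) held 89 regions, at 7.90 per Mb. Their strongest regions stood 150 kb from Vegfa, an endothelial growth factor, 246 kb from Bmp4 and 385 kb from Fgf10, a growth factor of mesenchyme. Each was nearer to the gene on its other side, at 133 kb from 1600014C23Rik, 124 kb from Cdkn3 and 157 kb from Nnt. The Bmp4 region had 14.6, 10.0 and 12.2 against 11.2, 11.2 and 9.16, and the groups overlapped. The Fgf10 region, at chr13:119177696-119178441, had 11, 9.44 and 12.4 against 14.9, 18 and 12.5, with the groups apart by a narrow margin.

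Developmental transcription factors bounded 93 gaps, of which 55 (59.1%) held 285 regions, at 5.53 per Mb. A region 276 kb from Lmo4 came next in support after those of Sox5 and Sox9. Cell and synaptic adhesion genes stood below the density of all gaps. They bounded 87 gaps with 129 Mb of desert, and 35 of these (40.2%) held 123 regions, or 0.956 per Mb. That share of gaps was near the 39.8% of all gaps. For scale, all 1689 gaps had 785 Mb of desert, and the 23 gaps of matrix genes had 9.16 Mb. Density fell with distance from genes, so gap length bears on the values per Mb. Gap length was not matched between lists, and its part in these differences was not tested. The strongest regions under this list lay between Fut10 and Nrg1 and, for a pair of them, between Epha7 and Map3k7. None of these flanking genes encodes a classical adhesion molecule, so the list was broader than its name. Endothelial markers bounded 4 gaps with 9 regions, at 6.12 per Mb, and leukocyte markers 1 gap with 2 regions, at 2.22 per Mb. No contractile marker bounded a gap of more than 200 kb. The lists were drawn up with earlier results of these data known, a gap can be bounded by genes of several lists, and nothing is called particular to a list from these values.

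**Figure D4:**
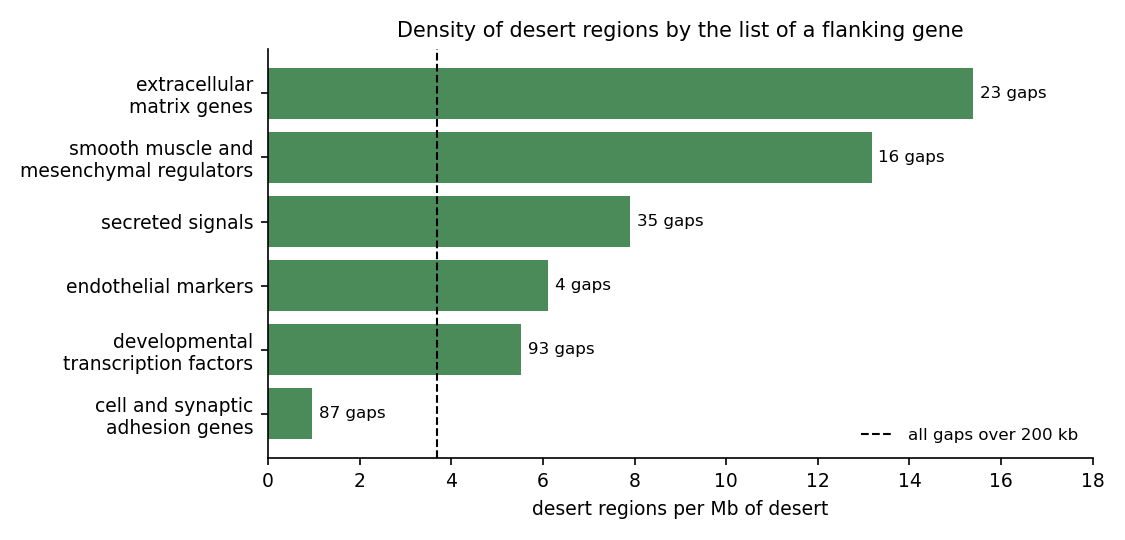
Desert regions per Mb of desert in gaps of more than 200 kb bounded by a gene of each list; labels give the number of gaps and the dashed line the value over all gaps, 3.69. Extracellular matrix genes stood at 15.4 and cell and synaptic adhesion genes at 0.956, with gap length not matched between lists. The leukocyte list, with 1 gap, and the contractile list, with 0, are not drawn.

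The tissue label was checked at the ends of marker genes. A peak within 1 kb of a gene end was present in all 6 libraries for 6 of 12 smooth muscle markers (Acta2, Tagln, Smtn, Lmod1, Tpm1 and Tpm2) and in none for 3, among them Myh11, the smooth muscle myosin. Of 10 endothelial markers, 0 had a peak in all 6 libraries and 7 had none. Of 10 leukocyte markers, 5 had no peak in any library, Ptprc among them, while Cd68 and Cd14 had one in all 6. The peak lists held 51330, 33248 and 52091 peaks in the controls and 50543, 51279 and 41629 in the knockdown libraries. Read numbers per library were not analysed here.

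Arid3a knockdown was compared with control first by the share of each library's peaks that lay in a desert. It was 8.11%, 8.05% and 8.31% in the controls and 8.17%, 8.10% and 8.30% in the knockdown libraries. The groups overlapped, with means of 8.15% ± 0.134 (SD, n = 3) and 8.19% ± 0.101 (SD, n = 3). The difference of 0.0371 percentage points was smaller than either SD (two-sided exact permutation test, p = 0.8, adjusted p = 0.8 over 2 tests by Benjamini-Hochberg). With 3 libraries a group the smallest p that test can give is 0.1. The sign of this difference was not stable: it was −0.121 when all lists were cut to equal length.

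The number of the 2898 regions in which a library had a peak was 2710, 1890 and 2726 in the control and 2724, 2729 and 2274 in the knockdown libraries. The low values were those of control library 2 and knockdown library 3, which also had the shortest peak lists. The means were 2442 ± 478 and 2576 ± 261 (SD, n = 3 each), a difference of 134 regions that lay within the spread (two-sided exact permutation test, p = 0.6, adjusted p = 0.8). With a peak needed in 4 of the 5 libraries left, this difference was −124 without control library 2 and 242 without knockdown library 3. Since presence in at least 4 libraries chose the members, these numbers are set in part by that choice. The test therefore cannot decide whether the groups differ in presence, and is given as a description.

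**Figure D5:**
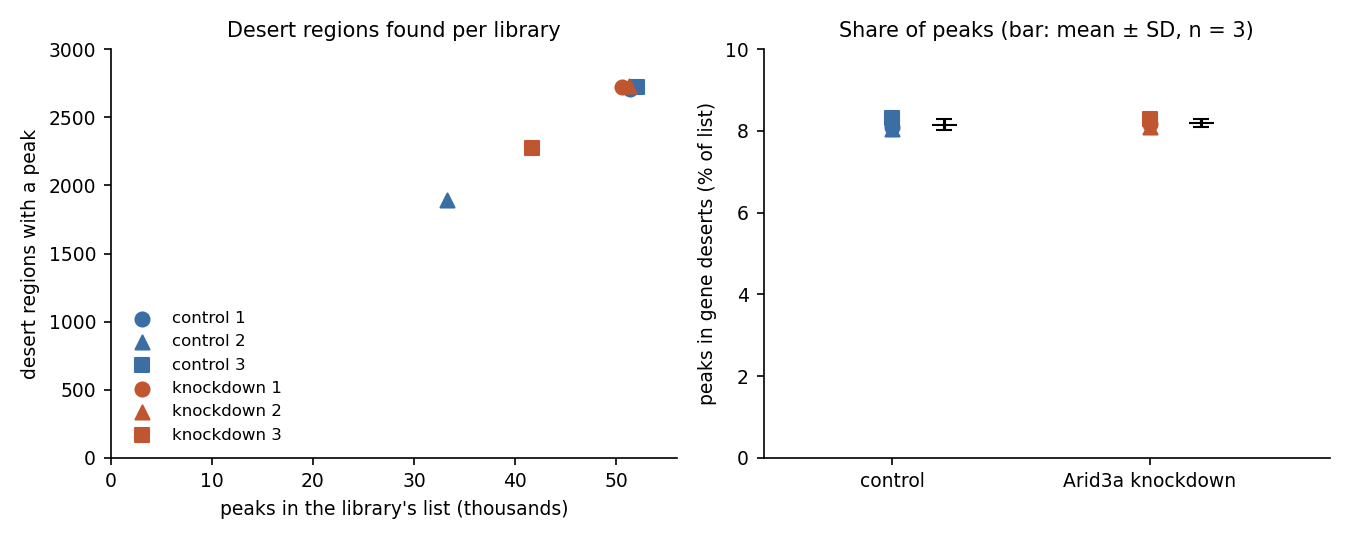
Left, the number of desert regions with a peak in each library against the number of peaks in its list; right, the percent of each library's peaks that lie in a desert, with mean ± SD (n = 3). Control 2 and knockdown 3 have the shortest lists and the fewest regions, 1890 and 2274; all 6 shares lie between 8.05% and 8.31%.

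Presence patterns were then counted. All 6 libraries had a peak in 1337 regions (46.1%), against 49.2% of the other intergenic regions, 50.5% of those inside genes and 71.0% of those at gene ends. Exactly 5 libraries had one in 787 and exactly 4 in 774. All 3 control libraries but only 1 knockdown library had a peak in 81 regions, 2.80% of the members, where the background over all 37599 shared regions was 2.47%. All 3 knockdown libraries but only 1 control library had one in 137 regions, 4.73%, where the background was 3.89%. Among the 774 regions found in exactly 4 libraries, these patterns made up 10.5% and 17.7%, against a background of 11.9% and 18.7%. Both shares of the members were thus near those of all regions.

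In each pattern the library with the shortest list of its group lacked the peak most often. Control library 2 lacked the peak in 122 of the 137 regions, while libraries 1 and 3 lacked it in 71 and 81. In the 81 regions of the other pattern, knockdown library 3 lacked it in 63, and libraries 1 and 2 in 49 and 50. A comparison added after the data were seen used only the 4 libraries with the longest lists. It took all 4347 regions in deserts with a peak in at least 2 of these 4, a set that goes beyond the 2898 members. Of them, 208 (4.78%) had a peak in both control and neither knockdown library, against a background of 3.93%. The opposite pattern was found in 178 (4.09%), against 3.55%. The control direction was thus the more frequent there, as it was in the background. Both the pattern and the set of regions differ from those of the 81 and 137 regions, so the counts are not like for like.

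Separation of the groups by height was counted over the 1337 regions with a peak in all 6 libraries. Every knockdown fold enrichment lay above every control value in 56 of them (4.19%), where the background over all 20742 such regions of the genome was 4.0%. The opposite was found in 14 (1.05%), where the background was 1.71%. Fold enrichment is set within a library, and over these 20742 regions its median was 6.89 in control library 2 and 7.62 in knockdown library 3, against 9.22 to 9.43 in the other libraries. After division by each library's median, an alternative added after the data were seen, the counts were 91 (6.81%, background 5.00%) and 62 (4.64%, background 4.93%). No test of these shares was made.

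The scaling changed which regions stood apart. The Has2 region no longer did, with scaled values of 1.45, 1.87 and 1.42 in the control libraries against 1.79, 1.80 and 1.97. The Fgf10 region still did, with 1.19, 1.37 and 1.35 against 1.59, 1.91 and 1.64. Among the regions named above, those beside Nrep, Cited2 and Bmp4 and the strongest one between Rasgrp1 and Thbs1 were higher in each control library on this scale. The 2 regions between Epha7 and Map3k7 stood apart in opposite directions, and the one between Med30 and Ext1 was higher in each knockdown library. At the Cited2 region the scaled values were 2.06, 2.24 and 1.87 against 1.81, 1.66 and 1.80, and at the Bmp4 region they were 1.58, 1.46 and 1.32 against 1.2, 1.19 and 1.2. These regions were picked out after their values were seen.

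The 5 knockdown-leaning regions with the highest support lay between Myocd and Map2k4, between Irf8 and Foxf1, between Myc and Gsdmc and, for a pair of them, between Rasgrp1 and Thbs1. One stood 206 kb from Myocd, which encodes myocardin, the coactivator of contractile genes, at chr11:65476237-65476567, with fold enrichments of 8.95, 9.25 and 9.79 in the knockdown libraries and 8.44 in control library 3. Another stood 146 kb from Irf8, a factor of myeloid cells, and 182 kb from Foxf1, a mesenchymal forkhead factor, at chr8:120902126-120902730, with 7.92, 12 and 10.4 against 8.53 in control library 3. The Myc gap held another at chr15:62382187-62382695, with 10.5, 8.97 and 9.38 against 11.2 in control library 1. In each of these 3 regions the 1 control peak was within, just above or just below the range of the knockdown peaks, and the missing values are peaks that were not called, not measured zeros.

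Control-leaning regions with the highest support lay between Phkb and Abcc12, Tspyl5 and Gm41291, Eea1 and Btg1, Ripk2 and Mmp16, and Kif18a and Bdnf. The first, at chr8:86351654-86351989, had 8.19, 7.72 and 7.01 in the controls and 6.16 in knockdown library 1. The region between Eea1 and Btg1, an antiproliferative gene, at chr10:96237698-96238089 had 9.89, 6.13 and 5.69, and 6.86 in knockdown library 2. In 2 of the 5 the single knockdown value lay above each control value. Between Tspyl5 and Gm41291 it was 9.45 against 6.25, 6.21 and 8.08, and between Ripk2 and Mmp16 it was 11.6 against 9.70, 5.78 and 10.6. Between Kif18a and Bdnf, a neurotrophin, it was 5.87 against 6.04, 5.64 and 7.34. The −log10 q of the weakest library with a peak ran from 5.15 to 6.08 in these 5 regions and from 9.28 to 11.4 in the 5 knockdown-leaning ones. Control-leaning regions must have a peak in control library 2, where the median −log10 q in desert regions was 5.94. Knockdown-leaning ones need not, and must have one in knockdown library 3, where that median was 7.31. These ranges were therefore not set on equal terms and do not rank the directions. No test of single regions was made, because absent peaks carry no value.

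With the peaks as listed, peaks in deserts did not differ detectably in height from other intergenic peaks or from those inside genes. They were slightly narrower in every library, by a difference that missed the adjusted threshold of 0.05. The merged desert regions had a median width of 503 bases (quartiles 403 and 635), against 519 in other intergenic regions, 532 inside genes and 765 at gene ends. Within each library, the median fold enrichment of peaks in desert regions was 8.03, 6.15 and 7.85 in the control and 8.04, 8.06 and 6.75 in the knockdown libraries. In other intergenic regions it was 7.99, 6.28 and 7.90, and 8.02, 8.06 and 6.77. The mean difference was −0.0259 (SD 0.0613, n = 6), negative in 4 libraries and positive in 2 (two-sided exact sign-flip permutation test, p = 0.406, adjusted p = 0.406 over 4 tests). Against regions inside genes it was 0.0334 (exact permutation p = 0.375, adjusted p = 0.406). At gene ends the medians were above those of the deserts in each library, at 8.25, 6.64 and 8.26 in the control and 8.31, 8.34 and 7 in the knockdown libraries, and this difference was not tested.

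Peak width in desert regions had medians of 341, 338 and 364 bases in the control and 340, 346 and 339 in the knockdown libraries. In other intergenic regions the medians were 356, 348 and 376, and 349, 358 and 343. Desert peaks were narrower in 6 of 6 libraries, by 4 to 15 bases, with a mean difference of −10.3 bases (SD 3.72, n = 6). Each region had a peak in at least 4 of the 6 libraries, so these differences rest largely on the same regions. The test below thus measures agreement between libraries, and not the spread between regions. The exact permutation p was 0.03125, the smallest that 6 libraries allow, and the adjusted p of 0.0625 missed 0.05. Against regions inside genes the difference was −16.8 bases (SD 4.40), again in 6 of 6 libraries, with the same exact permutation p of 0.03125 and adjusted p of 0.0625.

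Regions near the thresholds are given as a description. Desert regions with a peak in exactly 3 libraries numbered 815, of which 27 (3.31%) were found in the control libraries only and 35 (4.29%) in the knockdown libraries only. Over all 8040 regions in exactly 3 libraries, the background was 2.94% and 4.58%. The median fold enrichment of the 815 was 5.47, against 5.99 in 4 libraries, 6.77 in 5 and 8.92 in 6. The share of regions lying in deserts was 11% of those found in 1 library and 6.45% of those found in 6. Just inside the distance rule lay chr14:9449877-9450266, 100.02 kb from Fhit, and chr4:150751902-150752534, 100.04 kb from Slc45a1. Just outside lay chr17:79454586-79455460, 99.9 kb from Cdc42ep3, and chr8:39742441-39742896, 99.9 kb from Msr1.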

How the data were processed

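ATAC-seq peak lists of 3 control and 3 Arid3a knockdown libraries were used, 1 list called by the authors per library. Per the submitters' processing notes, Bowtie2, Picard, MACS2 and the build mm10 were used. Versions, parameters, duplicate handling, read shift and read depth are not given by the sources used here. For each peak the authors deposited a position, a score, a fold enrichment at the summit, the −log10 of its p-value and q-value, and the offset of the summit. Fold and −log10 q are relative to each library's own background and were used as given, except where a division by the library's median fold is stated. Kept duplicates could add peaks, and a missing read shift would move edges by a few bases.

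Peaks were merged (overlap of at least 1 base) and placed by the midpoint against 21887 protein-coding genes of RefSeq (GRCm38.p6), with Python 3.11.15, numpy 2.4.6, pandas 2.3.3 and matplotlib 3.10.9. A region inside a gene had its midpoint there, a gene-end region lay within 1 kb of a gene's end, and other intergenic regions lay beyond that and within 100 kb. Groups were compared with two-sided exact permutation tests over 20 relabellings, and region classes with exact sign-flip tests over 64 flips, adjusted by Benjamini-Hochberg. The counting and tests were checked on simulated data. One marker result is not reported here. The members and gene lists were chosen with earlier results of these data known.

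Named regions were the 12 best supported, the strongest of the 8 fullest gaps, the 5 farthest, 5 leaning each way, 2 on each side of 100 kb, up to 3 per gene list, and those over small RNA genes or printed promoters. Alternatives changed the distance, the q-value cut, the list length, the gene set and the libraries used.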

Additional observations from a re-analysis of the deposited data

How the results depend on the processing

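The number of desert regions was 2898. It was 4843 with a distance of 50 kb, 1362 with 200 kb and 389 when genes of any type had to be more than 100 kb away. Leaving out 1 library gave 2254 to 2674, but a peak was then needed in 4 of the 5 left, a stricter rule. The leave-out ranges below use that rule too, except for the share of peaks in deserts. The difference in the share of peaks in deserts, knockdown minus control, changed sign to −0.121 with lists of equal length, and ran from −0.0179 to 0.113 percentage points when 1 library was left out. The difference in regions with a peak ran from −124 without control replicate 2 to 242 without knockdown replicate 3. The difference in fold enrichment between desert and other intergenic regions turned to 0.0201 with 50 kb, 0.0643 with peaks of −log10 q of at least 5 and 0.0554 with lists of equal length, and ran from −0.00255 to 0.0309 when 1 library was left out. The difference in width was negative in 15 of 15 alternatives. It was −11.7 bases with the −log10 q minimum and −10.8 with lists of equal length (exact sign-flip permutation test, adjusted p = 0.0417 in both). The exact permutation p before adjustment was 0.03125 there, as in the main setting, so support for the width difference did not grow. The adjusted p fell because the fold enrichment contrast with regions inside genes also reached that smallest p in these settings. That height contrast thus passed 0.05 there, unlike in the main setting, where it was 0.0334 (exact sign-flip permutation test, p = 0.375). Its size and sign in those settings were not kept, so no direction is given. Among the 4347 desert regions with a peak in at least 2 of the 4 libraries with the longest lists, 208 leaned to control and 178 to knockdown. After scaling to the library medians, the regions with groups that did not overlap numbered 91 with knockdown higher and 62 with control higher, against 56 and 14.

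With the replicate block, the differences were 0.0371 percentage points (exact permutation p = 0.5) and 134 regions (exact permutation p = 0.75), with a smallest possible p of 0.25, and no call changed. Libraries with the same number did not deviate together in which regions had a peak (correlations of 0.0240, −0.0521 and −0.0479). The largest correlation, 0.0912, was between control library 2 and knockdown library 3, which had the shortest lists. Such values cannot show whether libraries with the same number shared a culture or a batch. Read depth is unknown, so a peak missing from a list does not show closed chromatin.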
